A study of Mus musculus with 16 samples.

Results

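Iqcb1 and 6 genes around it were followed: Cep290, Nphp4, Invs, Ahi1 and Tmem67, which encode proteins of the ciliary base, and Smo, which encodes a receptor-like protein that signals from the cilium. Iqcb1 was chosen because its signal was high in Kir2.1 pools at postnatal day 6 (P6) and low in the other groups, so its values are given as a description with no test. The other genes are related to it by function and were taken to see whether they moved with it. Probes were taken by the RefSeq accession that the scanner files give, which yielded 9 of 55681 gene probes: 2 each for Nphp4 and Smo and 1 for each of the other 5 genes. Of the 7 genes, 5 passed the filter on dim signals. Cep290 and Ahi1 did not, and their values are given without a test.

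Mitral cells, which carry the output of the olfactory bulb, came from ICR mice. P6 Kir2.1 and P3 Kir2.1 cells (P3 is postnatal day 3) carried pCAG-EYFP together with pCAG-Kir2.1, while P6 control and P3 control cells carried pCAG-EYFP alone. In utero electroporation at embryonic day 12 was shared by all 4 groups, so the controls also carry the fluorescent protein, and the pCAG promoter is active in most cell types. Kir2.1 is an inward rectifier potassium channel that makes neurons less excitable. Each group held 4 arrays, and each array held cDNA pooled from 10 hand-picked cells after 30 cycles of PCR, so that a group rests on 40 cells that had been positive for EYFP and Pcdh21 transcripts. The number of animals behind the pools is not given, so p-values measure the spread between pools, part of which may be technical.

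Most neurons carry 1 primary cilium, a microtubule-based antenna that concentrates receptors. Its gate is the transition zone, just above the basal body, where nephrocystins and the Meckel and Joubert syndrome proteins form modules that decide which membrane proteins enter. Hedgehog signalling depends on this gate: once Patched is relieved by its ligand, Smoothened accumulates in the cilium and changes how GLI transcription factors are processed. In people, defects in these genes cause nephronophthisis, retinal degeneration, and Joubert or Meckel syndrome.

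RefSeq promoter windows of GRCm38.p6, from 250 bases before to 50 after a gene's start, matched 6 of the 7 genes, with 9 windows in all and none for Tmem67. The windows of Iqcb1 (chr16:36828150-36828449, plus strand) and Smo (chr6:29735247-29735546, plus strand) are shown because these are the genes whose signal differed most clearly between groups. Capitals mark GTTNCC on either strand, the core letters of the X-box that RFX factors, regulators of ciliary genes, bind.
Iqcb1: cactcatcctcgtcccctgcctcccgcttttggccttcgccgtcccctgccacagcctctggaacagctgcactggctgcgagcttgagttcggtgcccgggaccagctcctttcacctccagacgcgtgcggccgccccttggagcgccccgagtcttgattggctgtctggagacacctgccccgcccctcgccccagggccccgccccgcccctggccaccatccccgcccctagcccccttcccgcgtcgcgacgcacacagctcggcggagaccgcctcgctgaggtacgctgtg
Smo: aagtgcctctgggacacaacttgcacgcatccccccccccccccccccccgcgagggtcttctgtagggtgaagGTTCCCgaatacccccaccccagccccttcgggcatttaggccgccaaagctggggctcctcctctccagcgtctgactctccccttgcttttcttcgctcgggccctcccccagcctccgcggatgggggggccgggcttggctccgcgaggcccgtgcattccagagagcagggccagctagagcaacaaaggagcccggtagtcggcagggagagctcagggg
GTTNCC was found in 6 of the 9 windows, against 45.3% of all 32851 windows. The Iqcb1 window held no GTTNCC, and the Smo window held it once, starting 176 bases before the start. The cAMP response element TGACGTCA, a motif of activity-regulated promoters, was found in 0 of the 9 windows (1.79% of all), and its shorter form TGACG, which is contained in it, in 3 of 9 (20.8% of all), which were 2 windows of Nphp4 and 1 of Ahi1. These are matches of letters on both strands in a short window and nothing more.

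On each array, 34.3% to 41.1% of probes gave a signal well above background. Pools of 1 group correlated, across genes, with a median of 0.818 in P6 Kir2.1, 0.803 in P6 control, 0.847 in P3 Kir2.1 and 0.874 in P3 control. All P6 arrays lay on slide 2 and all P3 arrays on slide 1, so the age and the slide of an array cannot be told apart, and Kir2.1 pools occupied row 2 and control pools row 1 of each slide, so row and treatment cannot be told apart. The replicate number of a pool was also its column on the slide, in every group. The mitral cell marker Cdhr1 (Pcdh21) was well above background on all 16 arrays, while the probe of Kcnj2, the gene of Kir2.1, was on none and therefore checks nothing about the labels. Levels below are on the log2 scale, with 0 at the array's own 75th percentile among probes detected on every array, and differences are Kir2.1 minus control or P6 minus P3 on that scale, unless given otherwise. An adjusted p is from limma with Benjamini-Hochberg adjustment over all 21068 features, and the threshold was 0.05.

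Iqcb1 encodes nephrocystin-5, a calmodulin-binding protein that partners CEP290 at the transition zone. At P6 its level was -1.41, -3.23, -0.72 and -3.98 in Kir2.1 pools 1 to 4, against -10.29, -7.94, -9.56 and -9.62 in control pools 1 to 4. All 4 Kir2.1 pools were well above background and none of the control pools was, with unscaled signals of 152 to 895 in Kir2.1 pools and 1.63 to 4.23 in control pools. The means were -2.33 ± 1.52 in P6 Kir2.1 and -9.35 ± 1.00 in P6 control (SD, n = 4 each). The difference was 7.02 (SE 0.95). With the control pools set to the lowest signal called well above background on their array, it is at least 36.1-fold, or 24.9-fold without P6 Kir2.1 pool 3. Among all features tested, 1.76% passed the threshold in this comparison and 3.21% had all Kir2.1 pools above all control pools; Iqcb1 was picked out from these, so nothing is read from its place among them. The normexp background correction, which adds 50 units to every signal, lowered the difference to 2.55.

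At P3 the order was not the same. Iqcb1 was at -8.48, -8.66, -6.90 and -9.41 in the 4 Kir2.1 pools, none well above background, against -5.72, -7.39, -4.84 and -9.14 in the 4 control pools, of which pools 1 and 3 were well above background. The groups overlapped, and the difference was -1.59 (SE 0.95). It was -0.94 without P3 control pool 3, and no lower bound on the fold then remained. In order of the group means, P6 Kir2.1 came first and P3 control (-6.77 ± 1.90, SD, n = 4) next, while P3 Kir2.1 and P6 control had only pools at background and are not ordered. The last 3 groups overlapped pool by pool, and only the P6 Kir2.1 pools stood clear of every other pool. Signal was thus found outside the P6 Kir2.1 group as well, in 2 of 4 P3 control pools. The protein-coding genes next to Iqcb1 on its chromosome did not follow it: at P6 Eaf2, a partner of an elongation factor, differed by -0.55 (SE 0.25, adjusted p = 0.276) and Golgb1, a Golgi matrix protein, by -1.02 (SE 0.59, adjusted p = 0.391).

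**Figure D1:**
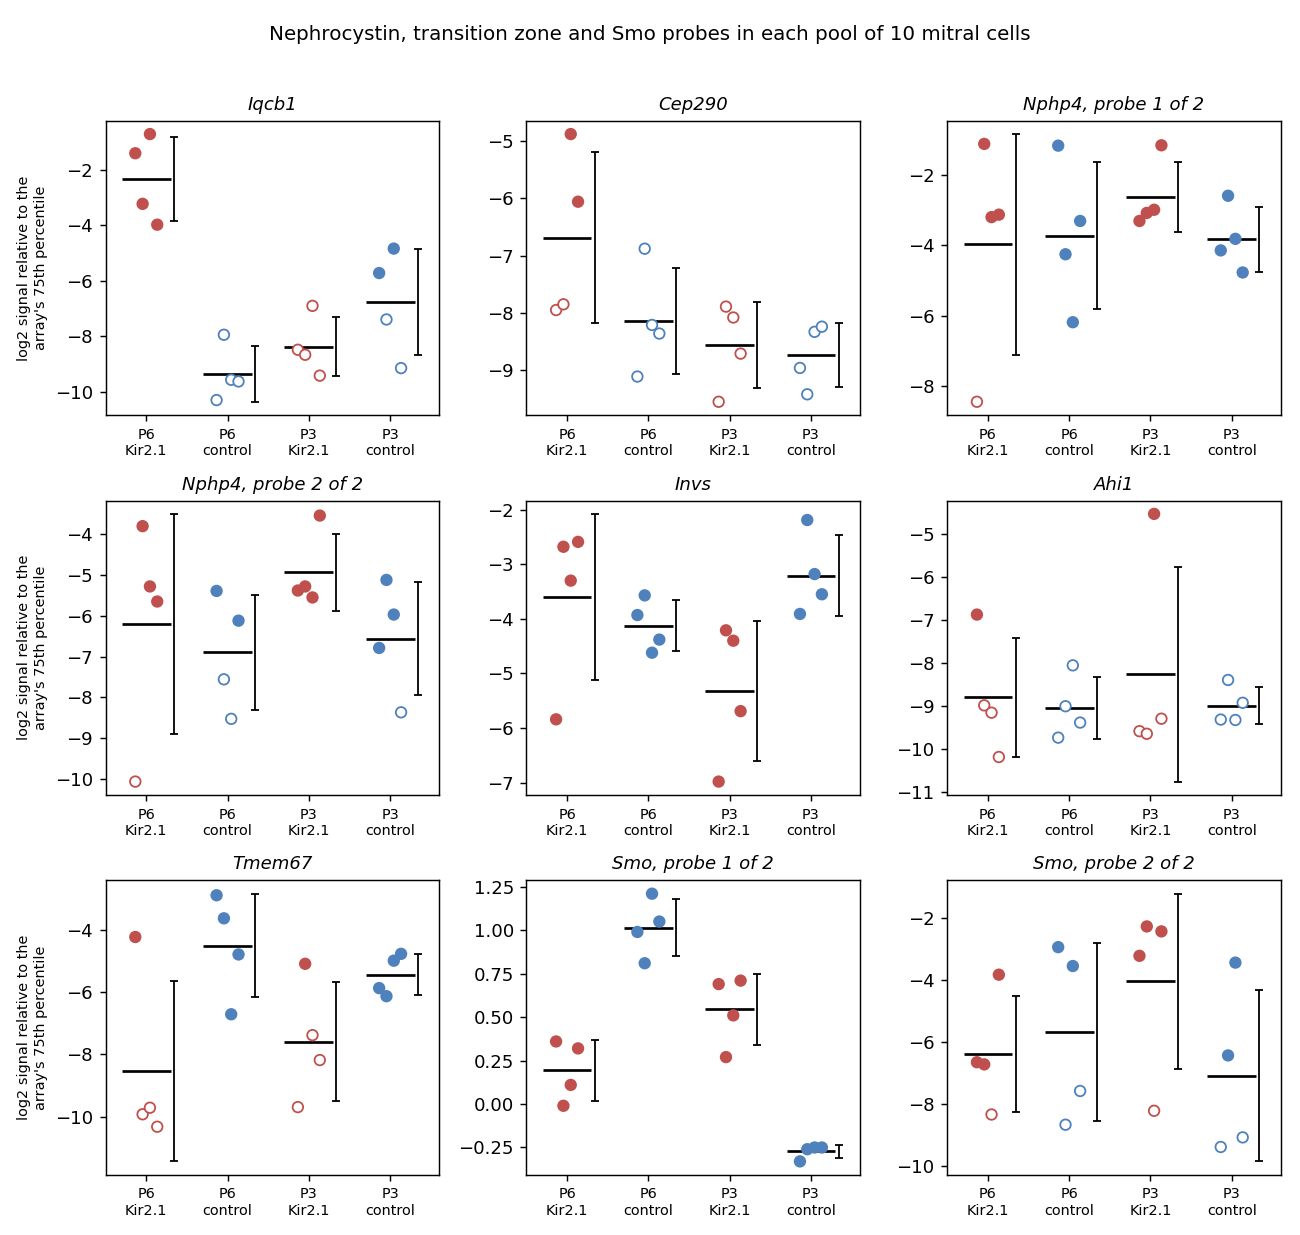
Log2 signal relative to the array's 75th percentile (y axis) for each of the 9 probes in each pool of 10 cells, by group (x axis). Filled points are well above background and open points are not, bars are means and whiskers 1 SD (n = 4). The P6 Kir2.1 pools of Iqcb1 lie between -3.98 and -0.72, above all other pools, and probe 1 of Smo separates Kir2.1 from control pools at both ages in opposite directions.

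Cep290 encodes nephrocystin-6, a large protein that links the microtubules of the transition zone to the membrane. Its signal was near background: at P6 it was -7.95, -7.85, -4.88 and -6.06 in Kir2.1 pools 1 to 4, against -9.11, -6.88, -8.21 and -8.36 in control pools. Only P6 Kir2.1 pools 3 and 4 were well above background, of all 16 pools, and the groups overlapped. The difference at P6 was 1.45, which as a bound is at least 1.71-fold, or 1.13-fold without P6 Kir2.1 pool 3. At P3 Cep290 lay between -9.55 and -7.89 in Kir2.1 pools and between -9.42 and -8.24 in control pools, a difference of 0.18. Pool 3 was the brightest P6 Kir2.1 pool for both Iqcb1 and Cep290, but pool 4 was the dimmest for Iqcb1 and the second brightest for Cep290.

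Ahi1 encodes jouberin, a transition zone protein mutated in Joubert syndrome. It was well above background on 2 of 16 arrays, P6 Kir2.1 pool 1 (-6.88) and P3 Kir2.1 pool 3 (-4.54). Control pools lay between -9.74 and -8.06 at P6 and between -9.33 and -8.40 at P3, all at background. The differences were 0.24 at P6 and 0.72 at P3, and at neither age did the groups separate, so the array holds little information on this gene.

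Tmem67 encodes meckelin, a membrane protein of the Meckel syndrome module. At P6 it was -4.23, -9.92, -9.71 and -10.32 in Kir2.1 pools 1 to 4, against -2.89, -3.63, -6.71 and -4.79 in control pools. Kir2.1 pools 2, 3 and 4 were below every control pool, while pool 1 lay within the control range. The difference was -4.04 (SE 1.30, 95% interval -6.84 to -1.24) and did not pass the threshold (adjusted p = 0.129). Without P6 Kir2.1 pool 1, the pool within the control range, it was -5.48. Its size rests on Kir2.1 pools at background, 3 of the 4, and with normexp it was -1.25 (adjusted p = 0.11). At P3 Tmem67 was -9.69, -5.09, -7.38 and -8.18 in Kir2.1 pools, against -5.87, -6.13, -4.99 and -4.77 in control pools, a difference of -2.15 (SE 1.30, adjusted p = 0.834; -0.46 with normexp). Counted over both ages, the probe was well above background in 2 of 8 Kir2.1 pools and 8 of 8 control pools, a count made after the values were seen and given without a test. Tmem67 therefore met the filter through its control pools, where it was high, so nothing is read from its p-values.

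Invs encodes inversin (nephrocystin-2), which occupies the stretch of cilium beyond the transition zone. It was well above background on all 16 arrays. At P3 it was -6.98, -4.21, -4.40 and -5.69 in Kir2.1 pools, against -3.91, -2.19, -3.18 and -3.55 in control pools. Every Kir2.1 pool was below every control pool, as was so for 2.72% of all features, but the difference of -2.11 (SE 0.74, 95% interval -3.70 to -0.52) did not pass (adjusted p = 0.599). At P6 the difference was 0.52 (SE 0.74, adjusted p = 0.765), with -5.84 to -2.59 in Kir2.1 pools and -4.62 to -3.57 in control pools. The interaction, the Kir2.1 difference at P6 minus that at P3, was 2.63 (SE 1.05, adjusted p = 0.378).

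Nphp4 encodes nephrocystin-4, a core scaffold of the nephrocystin module. Its brighter probe lay between -8.46 and -1.10 in P6 Kir2.1 pools, against -6.19 to -1.15 in P6 control pools, so the groups overlapped fully. The difference was -0.25 at P6 (SE 1.34, 95% interval -3.13 to 2.64, adjusted p = 0.952) and 1.20 at P3 (SE 1.34, 95% interval -1.68 to 4.09, adjusted p = 0.93). The interval at P6 is wide enough to hold a large change in either direction. The second probe gave 0.70 at P6 (SE 1.16, adjusted p = 0.807) and 1.62 at P3 (SE 1.16, adjusted p = 0.884) where every probe was fitted on its own. Both probes placed the same pools at the ends: in P6 Kir2.1, pool 1 was the lowest (-8.46 and -10.07) and pool 2 the highest (-1.10 and -3.80), and in P3 Kir2.1, pool 4 was the highest (-1.14 and -3.54). P6 Kir2.1 pool 1 was also the lowest of its group for Invs and the highest for Tmem67. The sign of the P6 difference turned without P6 Kir2.1 pool 1 (1.25, adjusted p = 0.584) and without P6 control pool 1 (0.61, adjusted p = 0.869).

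Smo encodes Smoothened, the transducer of Hedgehog signals, and its brighter probe was well above background on all 16 arrays with little spread. At P6 it was 0.36, -0.01, 0.11 and 0.32 in Kir2.1 pools 1 to 4, against 0.99, 0.81, 1.21 and 1.05 in control pools. Every Kir2.1 pool was below every control pool, as was so for 5.69% of all features. Smo fell by 0.82 on the log2 scale (SE 0.19, adjusted p = 0.0473), a 1.76-fold difference, with 0.20 ± 0.18 in P6 Kir2.1 and 1.01 ± 0.17 in P6 control (SD, n = 4 each). It was the 1 gene called of the other 6 at P6, of which 4 were tested, where 1.76% of all features were called. Iqcb1 and Smo thus stood in opposite directions at P6.

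At P3 the same probe was 0.69, 0.27, 0.51 and 0.71 in Kir2.1 pools, against -0.33, -0.26, -0.25 and -0.25 in control pools. Here every Kir2.1 pool was above every control pool, as for 4.07% of all features. The difference was 0.82 (SE 0.19, 95% interval 0.41 to 1.23), but it did not pass at P3 (adjusted p = 0.261), where 0.00949% of all features were called and 0 of the 4 tested genes other than Iqcb1, with 2 of these, Smo and Invs, at an unadjusted p under 0.05 (6.53% of all features). The interaction was -1.64 (SE 0.27) and passed (adjusted p = 0.0362, with 0.0902% of all features called), so the Kir2.1 differences at P6 and P3 were distinguishable for this probe in this fit. Age went with slide and treatment with row, so a row difference that varied between slides cannot be told apart from this interaction. The second, dimmer Smo probe gave differences of the same signs, -0.70 at P6 and 3.05 at P3, with groups that overlapped widely, and its interaction of -3.75 (SE 2.47, adjusted p = 0.643, fitted on its own) did not pass. Leaving out a pool ended the P6 call of Smo in 15 of 16 cases, all but P6 control pool 2, with adjusted p up to 0.0975 and differences of -0.87 to -0.75 in those 15. It ended the interaction in 14 of 16 cases, all but P6 control pool 2 and P6 Kir2.1 pool 1, with adjusted p up to 0.105. With the replicate number, and so the slide column, as a block, neither call held: the adjusted p was 0.0761 at P6 and 0.0983 for the interaction, with the same differences. Scaling over all probes, which moved the median difference of all features at P6 to 0.09 from -0.13, gave -0.60 (adjusted p = 0.177), and the fit of the P6 arrays alone gave -0.82 (adjusted p = 0.302).

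**Figure D2:**
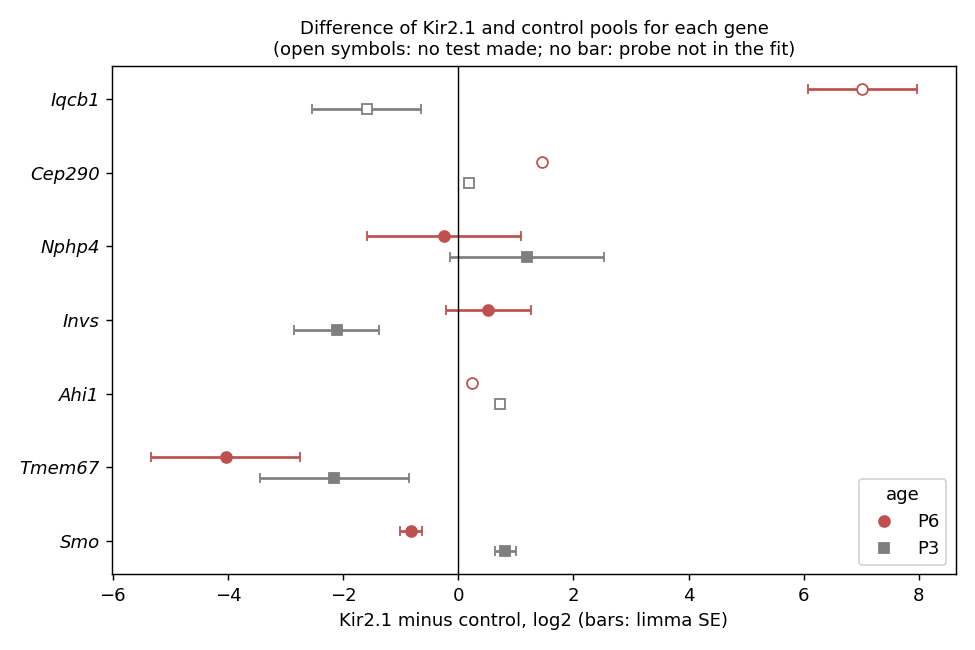
Difference of Kir2.1 minus control pools on the log2 scale (x axis) for each gene (y axis), at P6 (circles) and P3 (squares), with bars of 1 SE from limma. Open symbols mark differences given without a test; Iqcb1 stands at 7.02 at P6, and the Smo differences of -0.82 at P6 and 0.82 at P3 lie on opposite sides of 0.

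Markers of the cell types that the pools could hold were read beside these results. Of all 21068 features, 11863 were lower in P6 Kir2.1 and 1.76% were called at P6, so counts near these shares say little about a cell type. Those of mitral and tufted cells had a summed signal of 4.16 to 4.62 in P6 Kir2.1 and 3.27 to 4.04 in P6 control, which did not overlap. Of this sum 64% came from Cdhr1 (Pcdh21), a transcript for which the cells had been positive. Their mean level did overlap, at -1.64 to -0.18 in P6 Kir2.1 and -2.07 to -1.11 in P6 control. Of these markers 3 of 9 were lower in P6 Kir2.1 and 1 was called, Reln, which encodes the secreted protein reelin (3.89, adjusted p = 0.0209). Of the tested markers of bulb interneurons, 9 of 10 were lower in P6 Kir2.1 pools, their mean level lay between -6.83 and -4.02 in P6 Kir2.1 and between -3.48 and -1.15 in P6 control, and their summed signal lay between -0.91 and 1.41 in P6 Kir2.1 and between 1.17 and 2.93 in P6 control. The 1 interneuron marker called was Penk, a precursor of opioid peptides (-6.32, adjusted p = 0.0269). Of 8 tested markers of astrocytes and radial glia, 8 were lower in P6 Kir2.1, and their summed signal was 1.99 to 3.95 in P6 Kir2.1 and 3.55 to 3.83 in P6 control. Multiciliated ependymal cells are rich in ciliary transcripts. Of their 8 tested markers 6 were lower in P6 Kir2.1, with a mean level of -4.93 to -3.87 in P6 Kir2.1 and -4.48 to -3.55 in P6 control, and Ccdc153 and Tmem212 were well above background on no array. Their summed signal was 3.56 to 3.81 in P6 Kir2.1 and 4.02 to 4.56 in P6 control. At P3 it was 3.48 to 3.89 in Kir2.1 and 3.09 to 3.24 in control pools. This order is like that of Smo, but 98.2% of the sum came from Mcidas, so it is not an order of the whole list. The mean level of the list at P3 overlapped, at -5.82 to -5.12 in Kir2.1 and -5.62 to -4.65 in control pools. Of the 8 markers, 4 were higher in P3 Kir2.1. Lower in P6 Kir2.1 were also 5 of 5 markers of microglia, 5 of 6 of ensheathing cells, 6 of 9 of the oligodendrocyte lineage, 3 of 5 of olfactory sensory neurons and 1 of 6 of vascular cells, with 0 called and summed signals that overlapped. The part of these cell types in the results for Smo and the other genes was not tested. In pools of cells, fewer cells of a type and less RNA per cell cannot be told apart.

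In comparisons of P6 with P3, age and slide cannot be told apart. Smo was higher at P6 than at P3 in control cells, while in Kir2.1 cells its difference did not pass the threshold. In Kir2.1 cells the means were 0.20 ± 0.18 at P6 and 0.54 ± 0.21 at P3 (SD, n = 4 each), and the difference was -0.35 (SE 0.19, 95% interval -0.76 to 0.06, adjusted p = 0.415). In control cells they were 1.01 ± 0.17 at P6 and -0.27 ± 0.04 at P3, a difference of 1.29 (SE 0.19, adjusted p = 0.00354), and every P6 pool was above every P3 pool, as for 6% of all features. The second Smo probe, fitted on its own, gave 1.40 in control cells (adjusted p = 0.732) and -2.35 in Kir2.1 cells (adjusted p = 0.584). Of the 4 tested genes 0 were called in Kir2.1 cells and 1, Smo, in control cells, against 0.878% and 2.59% of all features. The order of the Smo group means was P6 control, P3 Kir2.1, P6 Kir2.1 and P3 control, of which P3 Kir2.1 and P6 Kir2.1 overlapped pool by pool and the others did not overlap their neighbours. Invs differed with age by 1.72 in Kir2.1 cells (adjusted p = 0.292) and by -0.92 in control cells (adjusted p = 0.566). Tmem67 differed by -0.96 in Kir2.1 cells (adjusted p = 0.783) and 0.94 in control cells (adjusted p = 0.758). Nphp4 differed by -1.34 in Kir2.1 cells (adjusted p = 0.692) and 0.10 in control cells (adjusted p = 0.98). Of the cilium lists described next, 3 genes, picked out after their values were seen, passed with age. Of 114 tested genes these were 1 higher and 1 lower at P6 in control cells, and 1 lower in Kir2.1 cells. With 2.59% and 0.878% of all features called, such counts say little about the cilium. Each of the 3 was well above background at 1 age alone and met the filter through it, so their p-values are not given. In Kir2.1 cells Xpnpep3, a mitochondrial peptidase linked to nephronophthisis, lay between -10.33 and -9.72 at P6, all at background, and between -8.71 and -3.90 at P3, at least 3.76-fold lower at P6, or 2.31-fold without P3 Kir2.1 pool 1. In control cells Kif7, a kinesin that regulates GLI proteins in the cilium, lay between -10.02 and -8.85 at P6, all at background, and between -7.22 and -2.69 at P3. It was at least 8.85-fold lower at P6, or 6.02-fold without P3 control pool 3. In control cells Boc, a co-receptor for the Hedgehog ligand, was at least 2.64-fold higher at P6, or 1.98-fold without P6 control pool 1, with all P3 pools at background. The age comparisons in control and in Kir2.1 cells share no arrays, but each shares arrays with the Kir2.1 comparisons above.

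The wider cilium was described with 7 lists of 142 genes in all, of which 114 were tested. None passed the threshold in limma, at P6 (0 of 114, against 1.76% of all features) or at P3 (0 of 114), with 15 at P6 and 8 at P3 at an unadjusted p under 0.05 (17.5% and 6.53% of all features). Their median difference was -0.10 at P6 and -0.01 at P3, where that of all features was -0.13 and -0.03. At P6, 53 of the 114 were higher and 61 lower, against 9205 and 11863 of all 21068 features. The counts for each list below stand beside these. At P6, 5 had all Kir2.1 pools below all control pools and 0 the reverse, against 5.69% and 3.21% of all features.

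The transition zone list also held genes linked to nephronophthisis that act elsewhere, such as Xpnpep3, so its counts do not describe that zone alone. Of its 22 tested genes, 8 were higher and 14 lower in P6 Kir2.1 pools, with a median of -0.37. Rpgrip1l, a scaffold that organises the zone, differed by -2.76 (SE 1.16, adjusted p = 0.241), with -8.30 to -4.16 in Kir2.1 pools and -3.52 to -3.03 in control pools, which did not overlap. Cspp1 and B9d2, a Meckel module protein, differed by -0.89 (adjusted p = 0.225) and 0.79 (adjusted p = 0.279). Among 11 genes of ciliary GTPases and the lipid gate, Inpp5e, a phosphatase that keeps the ciliary membrane low in a phosphoinositide, was at -6.87 to -5.49 in P6 Kir2.1 pools and -4.56 to -0.99 in P6 control pools (difference -3.26, SE 1.08, adjusted p = 0.134). Rab8a, which carries vesicles to the cilium, differed by -4.03 (SE 1.56, adjusted p = 0.202) and Unc119 by -1.20 (adjusted p = 0.186).

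Of 11 tested Hedgehog pathway genes, 6 were higher and 5 lower in P6 Kir2.1 pools, with a median of 0.12. Boc lay between -8.31 and -7.68 in P6 Kir2.1 pools, 2 of 4 well above background, and between -7.07 and -4.63 in P6 control pools, all 4 well above background. The difference was -2.12 (SE 0.52), but Boc was at background in every P3 pool and met the filter through its P6 control pools, where it was high, so no p is given. Evc, which binds Smoothened at the base of the cilium, differed by 5.35 (SE 1.78, adjusted p = 0.137), with -5.57 to -0.63 in Kir2.1 pools and -10.17 to -4.36 in control pools, which overlapped. Spop, an adaptor that targets GLI proteins for degradation, differed by 1.07 (adjusted p = 0.221).

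The lists of the machinery that builds and serves the cilium had median differences of -0.11 to 0.66 at P6, where that of all features was -0.13. Of 27 intraflagellar transport genes 10 were higher and 17 lower (median -0.11), with Ift74 at 3.20 (adjusted p = 0.223) and Ttc30a1 at -2.11 (adjusted p = 0.417). Ttc26 was at background in all 4 P6 Kir2.1 pools and 2 of 4 P6 control pools, at least 1.97-fold lower, with no bound left without P6 control pool 4. Of 11 genes of the BBSome, a coat that moves membrane proteins in cilia, and its chaperonins 7 were higher and 4 lower (median 0.66), with Bbs1 at 2.79 (adjusted p = 0.351), Ttc8 at -1.48 (adjusted p = 0.391) and Bbs7 at -0.94 (adjusted p = 0.505). Of 23 basal body and satellite genes 13 were higher and 10 lower (median 0.31), with the centrins Cetn3 at 1.10 (adjusted p = 0.225; 0.0402 without P6 Kir2.1 pool 3) and Cetn2 at 1.32 (adjusted p = 0.301), and Cep83, needed to dock the basal body, at 2.33 (adjusted p = 0.3). Of 9 ciliary receptor and signalling genes 4 were higher and 5 lower (median -0.05). Pkd2, a ciliary cation channel, was at -5.32 to -3.34 in P6 Kir2.1 pools and -2.45 to -2.23 in P6 control pools (difference -1.78, SE 0.64, adjusted p = 0.17), its partner Pkd1 differed by -1.53 (adjusted p = 0.184), and the ciliary transcription factor Rfx3 by -0.82 (adjusted p = 0.486).

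**Figure D3:**
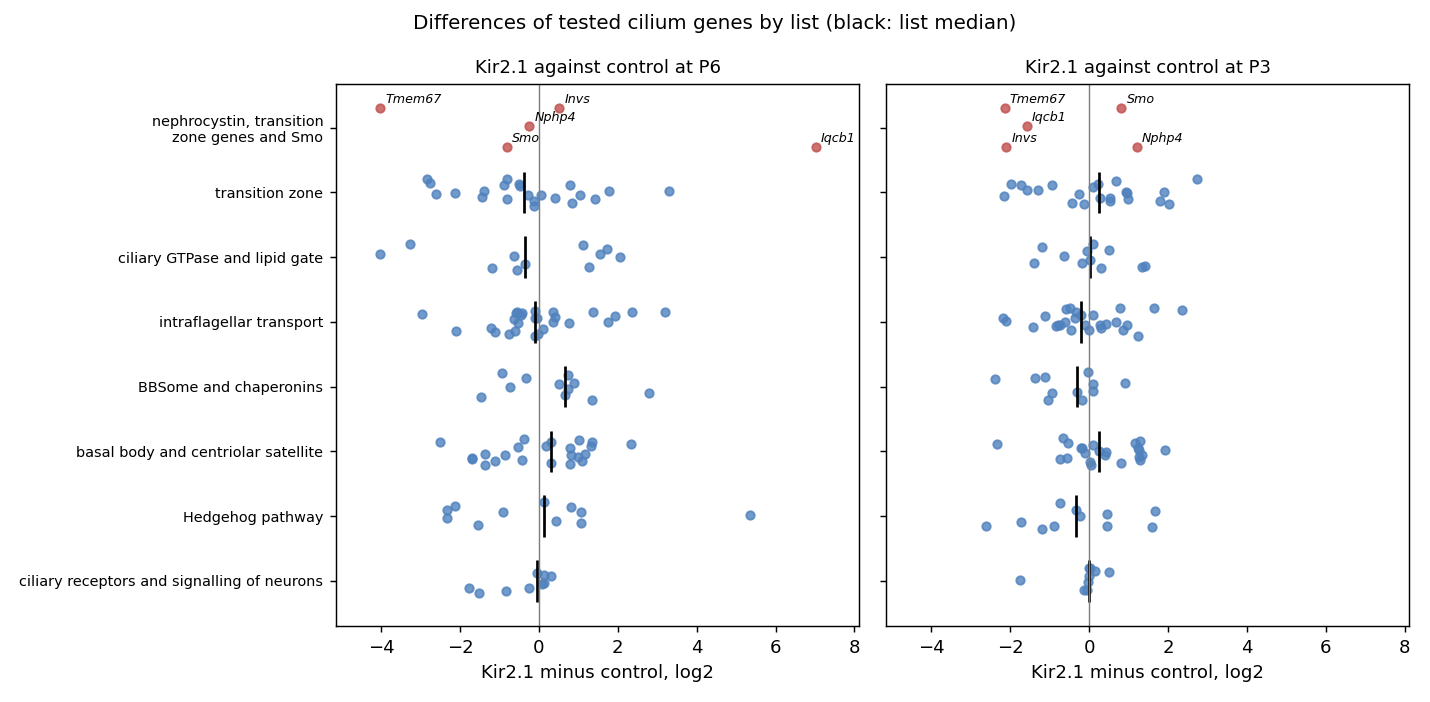
Difference of Kir2.1 minus control pools on the log2 scale (x axis) for each tested gene of the cilium lists (rows), at P6 (left) and P3 (right). Red points are the genes followed here and black bars the medians of the other lists, which lie between -0.37 and 0.66 at P6; Iqcb1 at 7.02 is the point farthest from 0.

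The genes whose pattern over the 16 arrays was most like that of Iqcb1 were sought among 12032 named genes by Pearson correlation, which here mostly reflects that a gene was high in the 4 P6 Kir2.1 pools. They were Alkal1, a ligand of ALK receptor kinases (r = 0.90), Shld2, a subunit of the shieldin complex of DNA repair (r = 0.88), Zfp664, a zinc finger protein (r = 0.82), Ppme1, a methylesterase of protein phosphatase 2A (r = 0.82), and Ccne1, cyclin E1 (r = 0.81). Alkal1 was well above background in all 4 P6 Kir2.1 pools, between -6.31 and -4.91, and in no other pool of the 16, with P6 control pools between -10.06 and -8.60. Shld2 lay between -6.90 and -3.68 in P6 Kir2.1 pools and between -9.62 and -8.02 in P6 control pools, and like Iqcb1 it was brightest at P3 in control pool 3 (-5.51). None of the 5 was on a cilium list. Of the other tested genes, Invs had r = 0.25 and rank 2262, Nphp4 r = -0.25, Tmem67 r = -0.40 and Smo r = -0.49, with ranks of 8982, 10492 and 11204. These values are over the 16 arrays, which share slides and groups, and are given with no test.

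**Figure D4:**
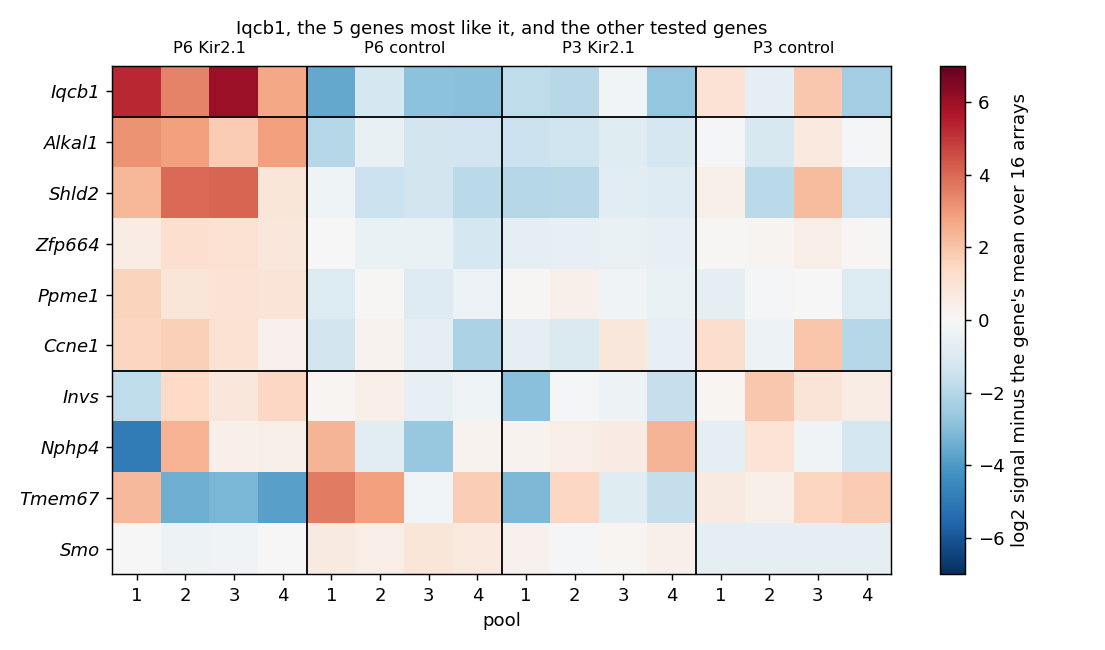
Log2 signal minus the gene's mean over 16 arrays (colour) in each pool (columns, by group) for Iqcb1, the 5 genes most like it and the other 4 tested genes (rows). The P6 Kir2.1 columns are high for Iqcb1 and the genes most like it, and mixed for Invs and Nphp4. They are low for Tmem67 in all pools but pool 1, and slightly below the gene's mean for Smo.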

How the data were processed

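Per the file headers and the submitters' processing notes, each sample was 1 array in 1 colour (Cy3), extracted by Agilent's Feature Extraction 10.7.3.1, and the deposited scanner tables give a background-subtracted spot intensity on a linear scale. The deposited value table holds the same intensity over the 75th percentile of that array's gene spots (ratio of the constants 1 to 1.001; column medians 0.0395 to 0.13), so its scale is linear, it is not centred on genes, and it was used as an alternative only.

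Control spots and outliers were removed and replicate spots averaged; 83 probes had no usable spot on an array. Symbols came from RefSeq accessions of GRCm38.p6, by which 26582 of 55681 probes were named. The 75th percentile of the 12102 probes detected in this way on every array was subtracted from an array's log2 intensities. Probes had to be well above background on 4 or more of 16 arrays, and the brightest probe stood for its gene. This left 21068 features, of which 12033 were named genes and 9035 were probes without a symbol, each kept as its own feature. Shares of all features cover both kinds. limma 3.58.1 (R 4.3.3) fitted the 4 group means over 16 arrays (12 residual and 1.64 prior degrees of freedom). In simulated data for the P6 comparison with 21068 features, log2 changes of 2 and 8 were recovered in 40% and 90% of cases. The scanner tables hold no mean signal, so normexp used the median signal.

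The genes, lists and tests were chosen with earlier results of these data known. Of each list, the 3 genes with the lowest p at P6 and any past the threshold with Kir2.1 were named, as were the 5 genes most like Iqcb1. Replicate numbers, which are also slide columns, did not pair the samples (correlation of deviations -0.03 to 0.03 for every pair); the block is given as an alternative. Precision is limited by the 4 arrays of a group.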

Additional observations from a re-analysis of the deposited data

Results flagged for a closer look

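Within a group of 4 pools, 1 pool stood far from the other 3 in 5 of the 36 sets of 4 pools examined (9 probes in 4 groups). The rule sets apart about 1 in 20 where sets are independent and values normal. Here some sets mix pools at background with pools above it, and the 2 probes of Nphp4 flagged the same pool. No excess over that rate is therefore read from the count. In P6 Kir2.1, Tmem67 was at -4.23 in pool 1 and between -10.32 and -9.71 in the other pools. In P3 Kir2.1, both probes of Nphp4 were high in pool 4, at -1.14 against -3.30 to -2.98 and at -3.54 against -5.55 to -5.28. Also in P3 Kir2.1, pool 3 stood apart for Ahi1, at -4.54 against -9.65 to -9.30, and for the dimmer probe of Smo, at -8.23 against -3.22 to -2.27. All 5 were in Kir2.1 pools, which is given without a test.

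The Kir2.1 difference of Smo was not the same at the 2 ages: its interaction was -1.64 (adjusted p = 0.0362 in limma; 0.0902% of all features called), and Kir2.1 and control pools were fully apart in opposite directions at P6 and P3. Its limits are given with the result.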

How the results depend on the processing

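Calls were counted among the genes followed here apart from Iqcb1, which was given no test. There were 28 other settings, 16 of which left out 1 pool. None of them called any of these genes at P3, and with age in Kir2.1 cells none did of the 27 that apply. At P6 the count of 1 (Smo) became 0 with scaling over all probes, the deposited value table, no filter, every probe its own feature, the mean of a gene's probes, array weights, arrays of that age alone and the replicate block, and 0 to 1 without 1 pool. The 1 without P6 Kir2.1 pool 1 was Tmem67, which met the filter through its control pools, so nothing is read from that call. For the interaction it became 0 with scaling over all probes, the value table, no filter, the mean of a gene's probes and the replicate block, and 0 to 1 without 1 pool, and with age in control cells it became 0 with the mean of a gene's probes. The Smo difference at P6 stayed between -0.89 and -0.60 in all 28, and that of Iqcb1, where it passed the filter, between 2.55 (normexp) and 7.56; a filter at 8 arrays left Iqcb1 out. Normexp also lowered its interaction to 2.98, its age difference in Kir2.1 cells to 2.57 and in control cells to -0.41. The Nphp4 difference turned sign at P6 with normexp (0.02) and the mean of its probes (0.23), and without a pool ranged from -1.20 to 1.25 at P6, -0.76 to 0.93 with age in control cells (-0.12 with the mean of its probes), -2.30 to 0.15 with age in Kir2.1 cells and -2.40 to 0.05 for the interaction. The count of cilium list genes at P6 was 1 with normexp (Boc) and 0 to 1 without 1 pool.

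Called features at P6 numbered 370, against 705 with normexp, 193 with no filter, 632 with trend and robust moderation, 158 with array weights, 20 on that age's arrays alone, 182 with the replicate block and 172 to 413 without 1 pool; 49.2% of the calls were higher, against 34.8% with normexp, 71.5% with scaling over all probes and 70.5% with the value table. At P3 there were 2, against 9 with normexp, 8 with scaling over all probes, 8 with the value table, 11 with the filter at 8 arrays, 1 with no filter, 9 with trend and robust moderation, 25 with array weights, 18 on that age's arrays alone, 0 with the replicate block and 0 to 9 without 1 pool. The interaction had 19, against 46 with normexp, 31 with the filter at 8 arrays, 99 with trend and robust moderation, 9 with the replicate block and 9 to 43 without 1 pool. Age in control cells had 545, against 295 with no filter, 884 with trend and robust moderation, 326 with the replicate block and 235 to 587 without 1 pool. Age in Kir2.1 cells had 185, against 120 with quantile normalization, 53 with the replicate block and 29 to 202 without 1 pool. The replicate number is also the slide column, and same-numbered pools did not deviate together. The cause of these shifts was not tested.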
